A study of Mus musculus with 6 samples.

Results

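Genes whose RNA was at least doubled, or gained, in the testis of *Adad2* mutant mice were examined. The genes were chosen by their expression in the same 6 testes that are described here, so the difference between genotypes is a property of the choice and not a finding. A gene was taken when its mean in mutant testis was at least 1 CPM (the count of the gene divided by the total count of the testis and scaled to 1000000 counts) and at least 2 times its mean in wildtype, and when its lowest mutant value lay above its highest wildtype value. Of 42096 genes listed by the authors, 73 met these conditions and are called members. The same conditions with the genotypes exchanged were met by 854 genes.

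Whole testes of 3 wildtype mice and 3 *Adad2* mutant mice were collected at 25 dpp (days post-partum) and sequenced individually. All were of the C57Bl6J strain and had received no treatment named in the labels. The mutants were homozygous for a single CRISPR-induced allele, em3, which is present in every cell of the body and not in germ cells alone. The total expected count ranged from 16133264 to 22179778 per testis, so that 1 CPM corresponded to between 16.1 and 22.2 counts. The labels do not say whether the animals were littermates. The p-values given treat the testes as independent and set the difference between genotypes against the spread among these testes only. Genes were numbered by the authors within their own extended testis transcriptome, and no table used here pairs these numbers with symbols. Values of single testes are listed in the order of replicates 1 to 3 of each genotype. *Adad2* itself, the markers of testicular cell types and the sequences of members were therefore not analysed here.

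Spermatogenesis carries germ cells from mitotic spermatogonia through meiotic spermatocytes to round and elongating spermatids, all supported by somatic Sertoli cells. In the juvenile testis the first cohort of germ cells passes through these stages together, so the RNA of the whole organ changes as each cell type appears. ADAD2 is an RNA binding protein of meiotic germ cells with an adenosine deaminase domain that is thought not to be catalytic. In RNA from a whole testis, a larger share of cells of a type and more RNA per cell cannot be told apart.

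Members were mostly weakly expressed. Their median was 1.04 CPM in wildtype and 2.56 CPM in mutant testis, whereas the 18563 genes with at least 1 CPM in mutant testis had a median of 14.6 CPM there. Mutant means lay between 1 and 2 CPM for 27 members, between 2 and 5 CPM for 25, between 5 and 10 CPM for 11 and above this for 10. A member at 1 CPM in mutant testis thus rested on roughly 20 counts per mutant testis and on fewer in wildtype. The weakest member, for instance, had 3.07, 0 and 5.18 counts in wildtype testes. Most members were near the limit of the choice in size as well. The ratio of mutant to wildtype means was under 2.5 for 44 members, from 2.5 to 3 for 11, from 3 to 5 for 11 and over 5 for 6, with a median of 2.31 and quartiles at 2.09 and 2.94. The remaining member had no count in wildtype, and it was the only one gained in the strict sense. A further 5 members lacked counts in at least 1 wildtype testis but had them in another.

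**Figure D1:**
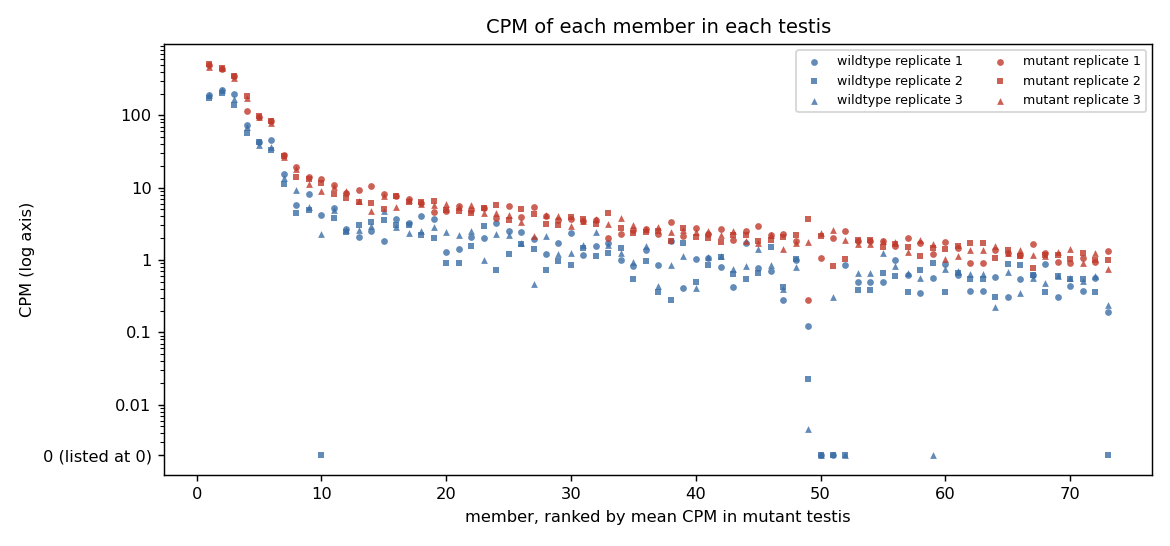
CPM of the 73 members (log axis) in each of the 6 testes, with members ordered by their mean in mutant testis and 1 point per testis (blue, wildtype; red, mutant) and values of 0 drawn at the foot of the axis. Each red point lies above all blue points of the same member by the choice of members, and the 3 members on the left hold most of the counts.

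A few abundant members held most of the RNA. Together the members had 889.9, 741 and 835 CPM in wildtype and 1854, 1948 and 1847 CPM in mutant testes, which is under 0.2% of the counts of a testis in both genotypes. The 3 most abundant members made up 68.2% of this amount in the mutant and the 6 most abundant 86.0%. Without these 6, the sum was 116, 88.6 and 111 CPM in wildtype and 278, 254 and 258 CPM in mutant testes.

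The most abundant member, XLOC_040035, had 190.4, 176 and 193 CPM in wildtype and 499, 519.5 and 462 CPM in mutant testes. Its values were close within each genotype, and its lowest mutant testis stood 2.40-fold above its highest wildtype testis. The mean was 186 ± 8.91 CPM in wildtype and 494 ± 29.0 CPM in mutant (SD, n = 3 testes each). In edgeR's quasi-likelihood test across all genes, which rests on the same contrast as the choice, its log2 fold-change was 1.45 with a standard error of 0.08 and an adjusted p of 3.34e-05. Members are numbered below by their mean CPM in mutant testis, with XLOC_040035 as member 1.

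Member 2 had 224, 206 and 222 CPM in wildtype and 435, 457 and 451 CPM in mutant testes. Member 3 had 198, 137 and 166 CPM in wildtype and 349, 353 and 329 CPM in mutant testes. Both lay just over the 2-fold limit, at 2.06-fold, and member 3 varied more among the wildtype testes than member 2. Member 4 had 74.1, 57.7 and 68.0 CPM in wildtype and 115, 183 and 171 CPM in mutant testes. Its mutant testes were spread more widely than its wildtype testes, with replicate 1 the lowest. Member 5 had 43.4, 42.7 and 38.9 CPM in wildtype and 93.9, 97.2 and 96.1 CPM in mutant testes, the closest agreement among mutant testes in these 6 members. Member 6 had 44.9, 33.5 and 35.9 CPM in wildtype and 84.3, 83.1 and 79.0 CPM in mutant testes, at 2.16-fold.

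XLOC_040157, or member 50, was the member gained in the mutant. No count was assigned to it in any wildtype testis, and 23.9, 47.6 and 43.2 counts were assigned in mutant testes, or 1.08, 2.17 and 2.34 CPM. Against a floor of 3 counts per wildtype testis, its mean was at least 11.01-fold higher in the mutant. In the authors' list this gene stands 122 places from XLOC_040035. Other members came near to a gain but with counts in wildtype. Member 51 had 0, 0 and 6.51 counts in wildtype and 44.4, 18.3 and 48.6 counts in mutant testes. Member 52 had 13.8 counts in wildtype replicate 1 and 0 in the other wildtype testes, against 55.4, 22.6 and 35.2 counts in mutant testes. Its fold thus depended on the wildtype testis used, as did that of member 51. Member 10 was the most abundant member without counts in some wildtype testis, but it was not near a gain. It lacked counts in wildtype replicate 2 alone and had 68.5 and 48.9 counts in replicates 1 and 3. Its values were 4.25, 0 and 2.28 CPM in wildtype and 13.3, 11.6 and 9.05 CPM in mutant testes.

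Member 49 was the least even of all members, with a coefficient of variation of 88.5% among mutant testes where the median member had 14.6%. It had 2, 0.37 and 0.1 counts in wildtype and 6.15, 80.1 and 33.2 counts in mutant testes. Mutant replicate 1 thus lay near the wildtype testes. Member 49 was also the only member removed by the filter on low counts before the edgeR test.

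**Figure D2:**
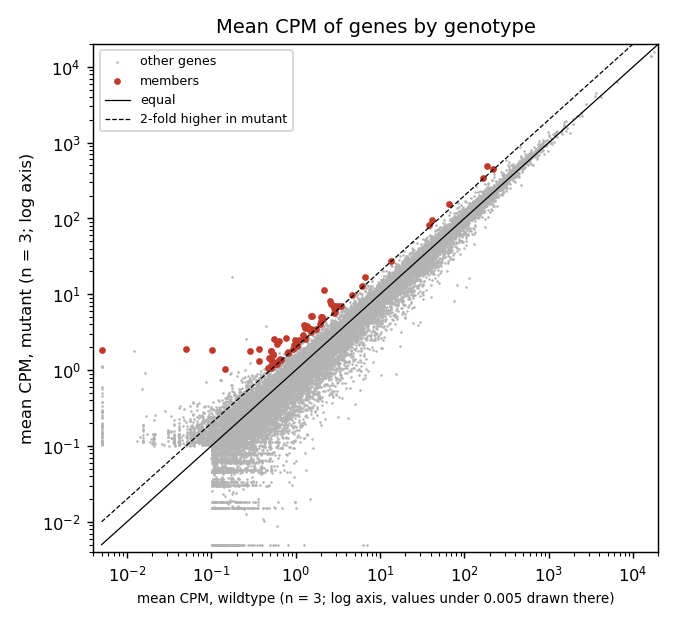
Mean CPM in wildtype (x axis) and mutant (y axis) testis on log axes, n = 3 testes each, for genes with at least 0.1 CPM in either genotype (grey) and for the 73 members (red). The solid line marks equal means and the dashed line a 2-fold higher mean in the mutant, above which 22 genes at 1 CPM or more were not taken because their genotypes overlapped.

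How sharply the genotypes parted differed between members. Among all genes with at least 1 CPM in mutant testis, 11.3% had every mutant value above every wildtype value, a condition that all members meet by choice. The lowest mutant testis was at least 2 times the highest wildtype testis in 18 members, counting XLOC_040157. In 8 members it was under 1.2 times, with the narrowest margin of 1.02 in member 38, which had 1.81, 0.279 and 0.850 CPM in wildtype and 3.30, 1.83 and 2.41 CPM in mutant testes. The limits of the choice cut through a continuous range. The smallest ratio among members was 2.01 and the largest ratio just outside, among genes without overlap, was 1.998. There were 19 members with a ratio under 2.1 and 29 genes without overlap with a ratio from 1.9 to 2. On the limit of abundance, the lowest member had 1.03 CPM in mutant testis and the next gene outside had 0.997 CPM. A further 230 genes met the other conditions below 1 CPM.

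Of the 73 members, 72 were tested by edgeR and 60 of these had an adjusted p below 0.05. Among all 21414 genes tested, 3.50% were called higher in the mutant. Nothing is read from the difference, because the same contrast chose the members. The 12 tested members that were not called ranked from 24 downwards in abundance, and none of them had an adjusted p over 0.110. The median log2 fold-change was 1.25 for the tested members and -0.06 for all genes tested.

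The values of a testis that had no part in the choice were then examined. The conditions were applied to 5 testes, and the genes so chosen were read in the testis left out. When mutant replicate 1 was left out, 77 genes were chosen and 66 of them (85.7%) were above all wildtype testes in mutant replicate 1, compared with 22.3% of all genes at 1 CPM or more. The corresponding share was 79.8% of 104 genes for mutant replicate 2 and 83.7% of 98 genes for mutant replicate 3, compared with 21.4% and 19.9% of all genes. Their median ratio of the left-out mutant to the wildtype mean was 2.16, 2.05 and 2.03. The wildtype testes took part in both the choice and the reading, which by itself raises the share for the chosen genes over that for all genes, so these shares are a description and were not tested.

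Wildtype replicate 1 differed from the other testes in this respect. With it left out, 163 genes met the conditions, and 111 of these (68.1%) were below all mutant testes in wildtype replicate 1. The share was 94.4% of 71 genes for wildtype replicate 2 and 85.1% of 94 genes for wildtype replicate 3. Over all genes at 1 CPM or more, the shares were 30.5%, 28.2% and 25.9% for wildtype replicates 1, 2 and 3, and here the mutant testes took part in both the choice and the reading. The median ratio of the mutant mean to the left-out testis was 1.46 for wildtype replicate 1, 2.06 for wildtype replicate 2 and 1.97 for wildtype replicate 3. The number of members was thus more than 1.5 times larger without wildtype replicate 1, and 65 of the 73 members were among the 163 genes.

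**Figure D3:**
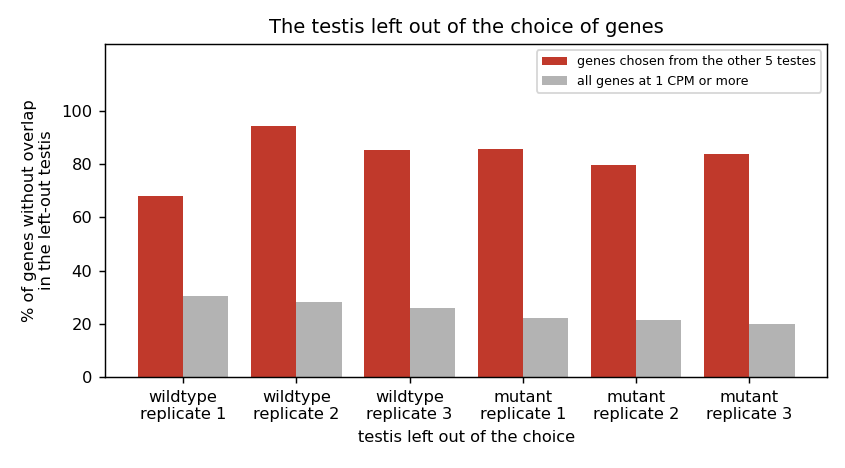
Percentage of genes (y axis) whose value in the testis left out of the choice (x axis) did not overlap the other genotype in the direction of a higher mutant. The red bars, for genes chosen from the other 5 testes, stand between 68.1% and 94.4%, and the grey bars, for all genes with at least 1 CPM in the mutant testes used, between 19.9% and 30.5%.

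Among themselves the mutant testes did not order the members in 1 way. The highest value was in mutant replicate 1 for 27 members, in replicate 2 for 23 and in replicate 3 for 23. Of all genes at 1 CPM or more, 30.7%, 28.8% and 40.5% were highest in mutant replicates 1, 2 and 3. Among wildtype testes, replicate 2 was the lowest for 40 of the 73 members, while it was the lowest for 34.1% of all genes at 1 CPM or more. Wildtype replicate 1 and mutant replicate 1 share the first number of the animal identifier, although the labels do not say what it stands for. Wildtype replicates 2 and 3 share a different number, and mutant replicates 2 and 3 share yet another. Among replicates 2 and 3 the number therefore cannot be told apart from genotype. Between mutant replicate 1 and wildtype replicate 1, the median ratio was 2.34 over the 71 members with a count in the latter. It was 0.986 over all genes at 1 CPM or more. Both testes took part in the choice, which sets every member higher in the mutant, so nothing is read from the difference.

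The members were not spread evenly over the list of genes, which is a property the choice did not use. The authors' identifiers are numbered and the list follows this number. Which places on the genome the numbers stand for is not given in the sources used here. When the list was divided into 42 stretches of equal length, 35 members (47.9%) lay in the last 3 stretches. These stretches hold 4.76% of the genes with at least 1 CPM in mutant testis. There were 17 members in stretch 40, 9 in stretch 41 and 9 in stretch 42, but at most 3 in any other stretch and none in 14 of them. Members were 3.96% of the genes at 1 CPM or more in the last 3 stretches and 0.215% elsewhere. The division was made after the values were seen and was not tested.

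**Figure D4:**
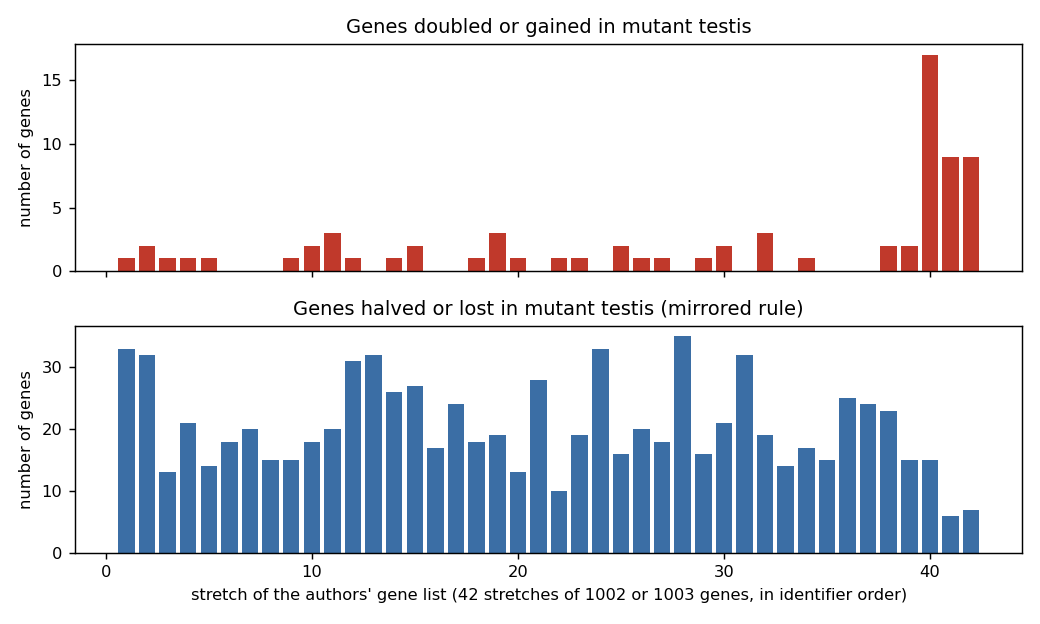
Number of members (top, red) and of genes halved or lost under the mirrored conditions (bottom, blue) in each of 42 stretches of the authors' gene list, in the order of the identifiers (x axis). Stretches 40 to 42 hold 35 of 73 members but 28 of 854 halved genes.

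Other genes of the last 3 stretches were read beside the members. The mirrored conditions were met by 28 genes in the last 3 stretches, or 3.28% of the 854 halved genes, where 4.59% of genes at 1 CPM or more in wildtype testis lie. For the 848 genes in these stretches that had at least 1 CPM in mutant testis and were not members, the median log2 ratio of mutant to wildtype means was -0.10. It was -0.08 for 17642 such genes elsewhere. The members were also compared with genes of like level. Among genes from 1 to 10 CPM in mutant testis, 6.79% lay in the last 3 stretches, and 34 of 63 members did. Setting aside any 1 testis, between 25.2% and 43.7% of the genes then chosen lay there, with the lowest share without wildtype replicate 1. The share also depended on the limit of the ratio. It was 16.6% of 319 genes at a minimum of 1.5-fold and 77.8% of 18 genes at 3-fold.

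Members at the end of the list had larger ratios at a similar typical level. The 35 members of the last 3 stretches ranged from 1.03 to 17.1 CPM in mutant testis with a median of 2.42 CPM, and their median ratio was 2.78. The 38 members elsewhere ranged from 1.07 to 494 CPM with a median of 2.78 CPM, and their median ratio was 2.16. Of the 18 members with a ratio of at least 3, XLOC_040157 included, 14 lay in the last 3 stretches, as compared with 21 of the 55 members with smaller ratios. The 14 include members 53 and 54, whose counts were identical. Members 49, 52 and 73 there, and member 51 and XLOC_040157 elsewhere, had few or no wildtype counts. Summed over the 35 members, expression was 48.1, 42.6 and 54.4 CPM in wildtype and 140.0, 118 and 133 CPM in mutant testes. Elsewhere the sum was 842, 699 and 780 CPM in wildtype and 1714, 1830 and 1714 CPM in mutant testes, and most of it came from members 1 to 3.

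Within the end of the list, members stood side by side. Another member was found within 10 places of 26 members, of which 23 lay in the last 3 stretches and 3 elsewhere. With members joined when no more than 20 places apart, 4 groups of at least 3 members appeared. They contain 22 members and span 73 listed genes, of which 28 had at least 1 CPM in mutant testis. The groups begin and end at a member by construction, so their share of members is not a result. Of the 6 expressed genes within them that were not members, 1 also had no overlap between genotypes with the mutant higher, at a ratio of 1.42. No gene in the groups met the mirrored conditions.

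The first group held 7 members among 9 expressed genes. Summed over its members, expression was 10.04, 8.01 and 9.74 CPM in wildtype and 29.4, 22.6 and 24.8 CPM in mutant testes. Its ratios ran from 2.25 to 5.23. Its first member stood 8 places before the end of stretch 39 and the others in stretch 40. The largest ratio was that of member 47, which had 0.277, 0.418 and 0.403 CPM in wildtype and 2.28, 2.06 and 1.40 CPM in mutant testes. Its most abundant gene, member 13, had 2.105, 3.04 and 2.62 CPM in wildtype and 9.20, 6.25 and 6.61 CPM in mutant testes. The remaining 2 expressed genes of the group had ratios of 0.988 and 1.09 and lay between members, so the higher level did not extend to each neighbour.

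The second group was the most compact, with 7 members among 8 expressed genes in 14 places. Its members summed to 8.83, 9.22 and 13.7 CPM in wildtype and to 30.1, 26.0 and 31.8 CPM in mutant testes. Member 12 was the most abundant, with 2.68, 2.44 and 2.60 CPM in wildtype and 8.55, 7.25 and 8.93 CPM in mutant testes, well apart in every testis. Within 10 places after the group, 2 further genes had ratios of 2.14 and 2.59 but overlapped between genotypes.

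The third and the fourth group held 4 members each, among 6 and 5 expressed genes. The third group summed to 8.50, 6.92 and 13.4 CPM in wildtype and to 29.1, 22.3 and 27.6 CPM in mutant testes. Most of this came from member 8, with 5.78, 4.52 and 9.38 CPM in wildtype and 19.1, 13.96 and 18.4 CPM in mutant testes, the most abundant member of the last 3 stretches. The fourth group summed to 4.13, 2.33 and 2.07 CPM in wildtype and to 12.3, 9.56 and 8.81 CPM in mutant testes. Its ratios ran from 3.10 to 6.37, with the largest in member 52 described above.

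**Figure D5:**
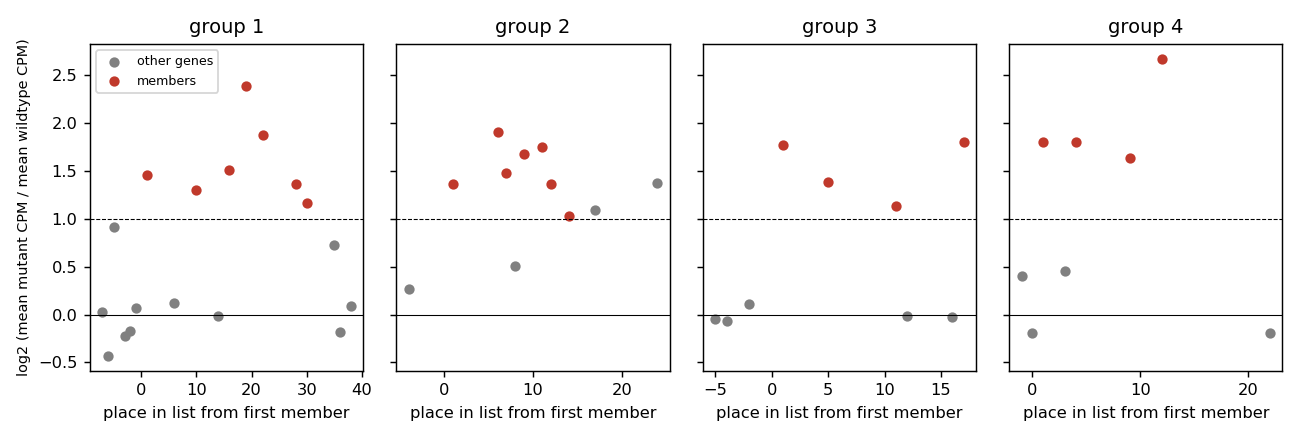
Log2 ratio of mean mutant to mean wildtype CPM (y axis) for genes with at least 1 CPM in mutant testis, by their place in the gene list counted from the first member (x axis), in the 4 groups of neighbouring members and up to 10 places on each side. Members (red) reach a log2 ratio of 2.67, the solid line marks equal means, the dashed line marks a 2-fold higher mean in the mutant, and other genes (grey) lie mostly near the solid line.

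Some of the neighbouring members cannot be counted as separate measurements. The counts of members 62 and 63 were identical in all 6 testes, as were those of members 53 and 54. The former pair lies 11 places apart within the second group. The latter pair lies 202 places apart, 1 in the third and 1 in the fourth group. In all, 4 of 73 members shared their counts with another gene, compared with 0.388% of genes at 1 CPM or more. RSEM divides a read that matches several features among them, so features that cannot be told apart receive equal counts. Counts that were not whole, by more than 0.05 in at least 1 testis, show such divided reads more widely. They were found in 76.7% of members and 69.9% of genes at 1 CPM or more, which is close to the background. In the last 3 stretches the shares were 88.6% of members and 66.3% of such genes, and elsewhere 65.8% and 70.1%. All 22 members of the 4 groups had counts that were not whole. The levels of single genes in these groups are therefore uncertain. XLOC_040035 and XLOC_040157, which lie outside the groups, also had counts that were not whole. The same limit applies to their levels and to the absence of wildtype counts in XLOC_040157. The group sums depend less on how reads were divided within a group. They still depend on division between groups, as for members 53 and 54, and with genes outside the groups, which was not examined. What part divided reads had in the ratios was not tested.

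Members had few isoforms. Isoforms were placed in genes by the order of the tables and by their counts, which sum to those of the gene. Counts fell on a single isoform in 53 members (72.6%), compared with 24.6% of genes at 1 CPM or more. Since weak genes show fewer isoforms, genes from 1 to 10 CPM in mutant testis were also compared, and 74.6% of 63 members but 36.6% of 7925 genes had a single isoform with counts. In the last 3 stretches 32 of 35 members had 1 isoform, as did 37.8% of genes at 1 CPM or more there, and elsewhere 21 of 38 members did, as did 23.9% of genes. The difference was thus present in both parts of the list.

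In the 20 members with several isoforms, the difference between genotypes was also read per isoform. A single isoform held at least 50% of the difference in CPM in 19 members and at least 80% in 10, but 9 of the 20 had 2 isoforms, for which 50% is the least possible. Of the 11 members with more isoforms, 10 had at least 50% on 1 isoform, as did 83.0% of 106 other genes with 3 or more isoforms and a ratio from 1.5 to 2, so the members were close to other genes in this. In 11 of these 20 members another isoform was lower in the mutant. XLOC_040035 had 12 isoforms with counts, of which 1 held 72.5% of its difference and 5 were lower in the mutant mean. Member 3, with 18 isoforms, was similar, with 68.6% on 1 isoform and 7 isoforms lower. Member 2 had 98.2% of its difference on 1 of 2 isoforms.

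Whether the isoforms of members kept their proportions was asked of the share of the gene's count on its commonest isoform. The commonest isoform was that with the highest summed CPM over all 6 testes, which in genes chosen for higher mutant counts favours an isoform common in the mutant. Over 13940 genes with several isoforms, with at least 1 CPM in mutant testis and at least 10 counts in each wildtype testis, this share did not overlap between genotypes in 15.5%. Of 14 members that could be compared, 3 did not overlap, close to the background. The median absolute difference in share was 9.56 percentage points for the 14 members and 3.24 for all genes compared, and many of these members had few counts. In XLOC_040035 the commonest isoform held 48.3%, 41.9% and 41.3% of counts in wildtype and 60.7%, 60.6% and 63.9% in mutant testes. The difference of 17.9 percentage points was larger than the spread within either genotype, although 3 testes against 3 allow no p under 0.1 in an exact permutation test. In member 14 the share was 67.1%, 72.1% and 42.9% in wildtype and 79.3%, 81.1% and 88.9% in mutant testes. In member 2 it was 95.4%, 95.9% and 94.4% in wildtype and 96.3%, 97.1% and 96.9% in mutant testes, a small difference between large counts. Member 3 held 71.7% on its commonest isoform in wildtype and 70.1% in mutant testis, with overlap.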

How the data were processed

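Paired-end reads of 100 bp from 6 whole testes were assigned by the authors to an extended testis transcriptome with RSEM, and the deposited tables hold expected counts of genes and isoforms without normalization. The submitters' processing notes name GRCm38, and the RSEM version is not given in the sources used here. The 92 spike-in rows, without any count, were removed. The authors' deposited EBSeq tables, which hold posterior probabilities and fold-changes between genotypes, were not used.

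CPM were computed from column totals. Genotypes were taken from the labels and columns matched by the identifier that opens each title. Expected counts were rounded and tested by edgeR 4.0.16 (R 4.3.3; quasi-likelihood test, filterByExpr, TMM, genotype as the only term), with Benjamini-Hochberg adjustment over all genes tested. The standard error was derived as the absolute log2 fold-change divided by the square root of the test's F statistic. The test was tried on simulated counts. All 105316 isoforms with counts were placed in 33218 genes. Members, divisions and comparisons were chosen with earlier results of these data known. The identifiers given are the most abundant member and the most abundant member without wildtype counts. Alternatives were DESeq2 1.42.0, limma-voom (limma 3.58.1), other scalings, filters and limits, an identifier block, and each testis left out.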

Additional observations from a re-analysis of the deposited data

How the results depend on the processing

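The number of genes that met the conditions, 73, was 97 with TMM-scaled CPM, 115 with median-of-ratios scaling, 18 and 319 with a minimum of 3-fold and 1.5-fold, 116 and 21 with a minimum of 0.5 and 5 CPM, and between 71 (without wildtype replicate 2) and 163 (without wildtype replicate 1) when single replicates were left out. The number in the last 3 stretches, 35, for which all alternatives were chosen after seeing the data, was 14 and 53 at 3-fold and 1.5-fold, 8 at 5 CPM, 39 with either scaling and between 31 and 43 when single replicates were left out. The changes in these numbers with other limits follow from their construction, and the cause of the others was not tested. As a share of the genes chosen, those in the last 3 stretches were 47.9%, but 16.6% at 1.5-fold and 77.8% at 3-fold. They were 43.1% and 38.1% at 0.5 and 5 CPM, 40.2% with TMM-scaled CPM and 33.9% with median-of-ratios scaling. Members called higher, 60, became 34 at a limit of 0.01 on the adjusted p, and 19 when the first number of the animal identifier was a replicate block. The genotypes have 1 such number in common, so this comparison rests on 1 testis of each. They numbered between 40 and 66 when single replicates were left out, with 40 without wildtype replicate 3 as without mutant replicate 1 or 2, and from 57 to 69 in the other settings. Over all genes, 750 were called higher, against 218 at the limit of 0.01, 1217 by DESeq2 and 97 under the replicate block. Setting aside mutant replicate 1, 2 or 3 gave 214, 215 and 425, and setting aside wildtype replicate 1 or 3 gave 2368 and 274. Members with most of the difference on 1 isoform numbered 10 rather than 19 at the stricter share of 80%. XLOC_040035 and XLOC_040157 were higher in the mutant and called in each of 13 alternatives. The same contrast chose both genes, so their direction was set by the choice. The fitted log2 fold-change ranged from 1.40 to 1.52 for XLOC_040035 and from 6.03 to 8.44 for XLOC_040157, which had no wildtype counts. At 1 CPM, or about 20 counts, the depth limits what can be said of single weak members.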
